A study of Arabidopsis thaliana with 15 samples.

Results

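Roots of the Arabidopsis thaliana ecotype WS were compared with roots of the ecotype Col-0, both wild type, on 6 of the 15 oligonucleotide arrays of the series. The arrays were chosen by their titles alone, 3 naming WS and 3 naming Col-0, and 13648 of the 22746 probe sets other than controls were bright enough to be tested. The other arrays, 3 a group, came from a triple mutant in GRF1, GRF2 and GRF3 (grf1/grf2/grf3, labelled with both ecotypes), from P35S:rGRF3 (labelled WS) and from P35S:rGRF1 (labelled Col-0). GRF genes encode growth-regulating transcription factors, and both P35S lines express a form of 1 GRF gene that resists its microRNA, from the strong and nearly ubiquitous 35S promoter. All plants were 2 weeks old and were grown on modified Knop's medium at 23 °C with 16 h of light and 8 h of dark. The labels do not say whether the 3 samples of a group were separate cultures, so p-values measure only the spread between these samples. The number of independent lines behind each P35S genotype is not given in the labels. The GRF genes themselves were not analysed here. All values below are log2 signal, and all differences are WS minus Col-0 on the log2 scale unless named otherwise.

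WS (Wassilewskija) and Col-0 (Columbia) are inbred accessions whose genomes differ at many single bases and by insertions, deletions and whole-gene presence. Genes of plant defence and of specialised metabolism, among them immune receptors, oxidases, cytochromes P450 and terpene synthases, often lie in tandem clusters of related copies and are known to vary between accessions. A probe set on this array type reads a transcript through several short oligonucleotides designed from Col-0 sequence. A WS allele that differs from those oligonucleotides, a deleted gene and a less abundant transcript all give a lower signal, and these cannot be told apart from signal alone. In whole roots, fewer cells of a type and less RNA per cell cannot be told apart either.

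By their hybridization controls and Arabidopsis control transcripts, WS and Col-0 arrays fell on opposite sides of a division of all 15 arrays. The mean of the 18 hybridization control probe sets was 10.85 to 11.2 on the WS arrays and 10.72 to 10.81 on the mutant arrays. It was 9.69 to 10.33 on the P35S:rGRF3 arrays, 10.07 to 10.18 on the P35S:rGRF1 arrays and 9.68 to 10 on the Col-0 arrays. The 3′ minus 5′ signal of Arabidopsis control transcripts measures how far the labelled RNA reached. It was 2.17 to 2.52 on the WS arrays, 2.06 to 2.32 on the mutant arrays and 1.59 to 1.71 on the Col-0 arrays. On the P35S:rGRF1 arrays it was 1.64 to 1.74, and on the P35S:rGRF3 arrays 1.55 to 1.69. The same measure of the poly-A control probe sets overlapped between the sets, at 1.6 to 2.24 on the WS arrays and 1.22 to 1.76 on the P35S:rGRF3 arrays. By the hybridization controls and the Arabidopsis transcripts, WS and mutant arrays formed 1 set of 6 and the remaining arrays a set of 9. Array set and ecotype cannot be told apart.

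A further check concerned the ecotype labels. At the 321 probe sets that differed by at least 4-fold between WS and Col-0, each other genotype was placed on a scale with the WS mean at 1 and the Col-0 mean at 0. The P35S:rGRF3 arrays, labelled WS, lay nearer WS at 28 probe sets and nearer Col-0 at 293, with a median position of 0.08. The P35S:rGRF1 arrays, labelled Col-0, gave nearly the same picture, with 34 probe sets nearer WS, 287 nearer Col-0 and a median of 0.09. The triple mutant, labelled with both ecotypes, lay nearer WS at 265 and nearer Col-0 at 56, with a median of 0.84. At these probe sets the P35S:rGRF3 arrays lay mostly on the side opposite to their ecotype label, and the genotypes divided as the array sets did. The filter on dim probe sets used the mean of all arrays. A probe set dim in WS therefore passed more easily if P35S:rGRF3 was bright. The WS mean lay under the filter value of 6.845 at 158 of the 283 lower probe sets. P35S:rGRF3 lay nearer Col-0 at 257 of these 283, and at 36 of the 38 higher in WS. The filter's part in these positions was not tested.

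**Figure D1:**
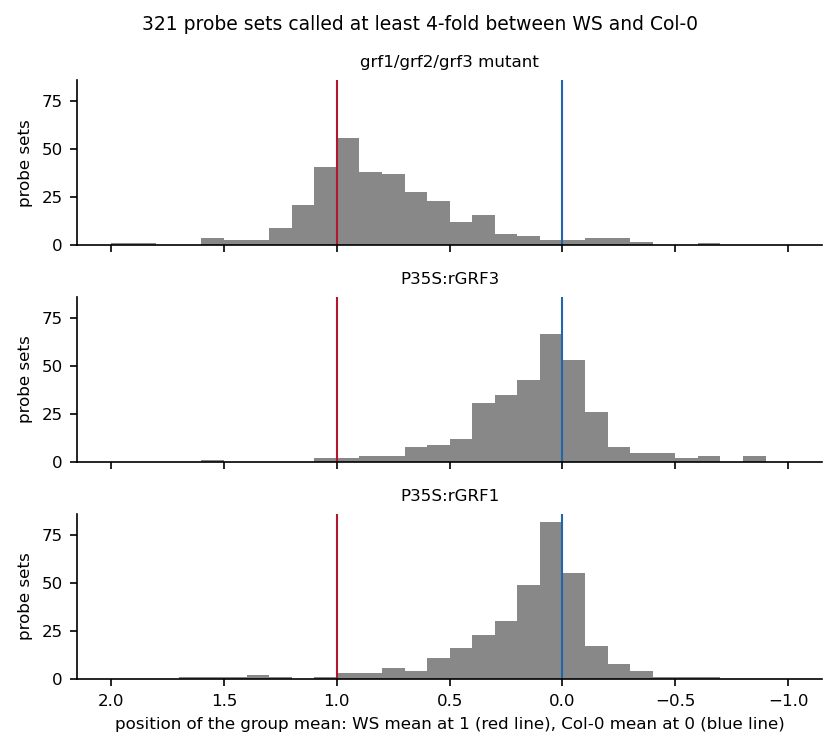
Histograms of the position of each other genotype between Col-0 and WS at the 321 probe sets called at least 4-fold, with the horizontal axis as the position (no unit, WS mean at 1, Col-0 mean at 0) and the vertical axis as the number of probe sets. The mutant centres near the WS line (median 0.84), and both P35S lines centre near the Col-0 line (medians 0.08 and 0.09).

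In the comparison itself, 7058 of 13648 probe sets were called (51.7%), meaning an adjusted p under 0.05 from limma with Benjamini-Hochberg adjustment. Of these, 4292 were higher in WS (31.4% of those tested) and 2766 were lower (20.3%). The median difference of all probe sets tested was 0.11, and the 5th to 95th percentiles ran from -1.25 to 1.05. At 2-fold or more, 808 probe sets were higher (5.92%) and 944 lower (6.92%). At 4-fold or more, 38 were higher (0.278%) and 283 lower (2.07%), and at 16-fold or more, 2 were higher (0.0147%) and 60 lower (0.44%). No probe set was higher by 64-fold, against 21 lower. The largest differences rested on a very dim WS signal. The WS mean lay under the filter value of 6.845 at 158 of the 283 probe sets lower by 4-fold and at 56 of the 60 lower by 16-fold. On the higher side, the Col-0 mean lay under it at 18 of the 38 higher by 4-fold and at both higher by 16-fold. With no filter on dim probe sets, 220 were higher and 699 lower by 4-fold or more (919 in all), and with a filter at the 60th percentile 13 were higher and 154 lower (167 in all). The filter takes the mean of all 15 arrays, 9 of them outside the set of the WS and mutant arrays. A probe set dim only in WS and the mutant therefore passed more easily than one bright only there, and the balance of large differences depends in part on this filter. The count called at any size was 1508 when a change of more than 1.5-fold was required, and 46.3% of these were higher in WS, against 60.8% in the main count.

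**Figure D2:**
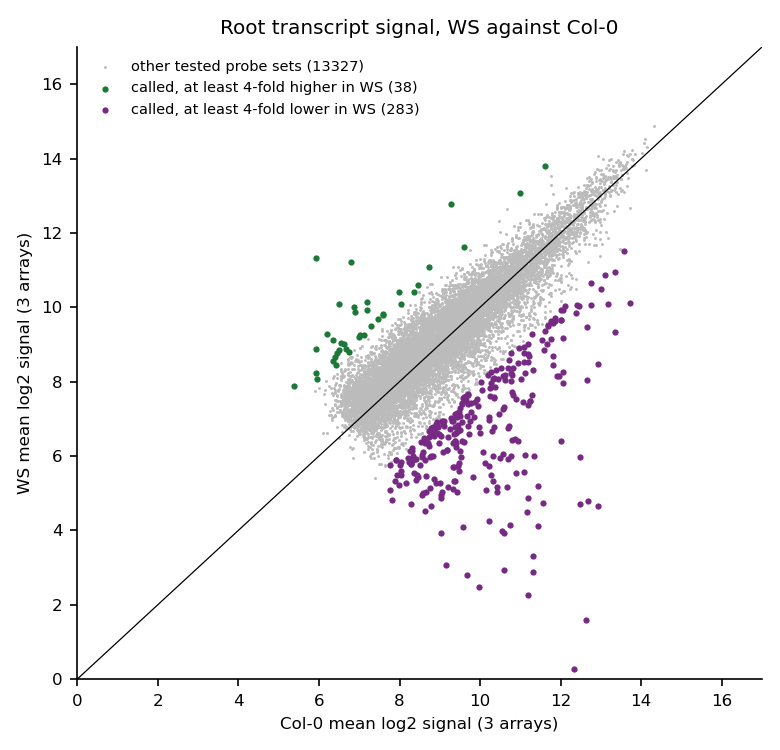
Mean log2 signal of 3 WS arrays (vertical axis) against that of 3 Col-0 arrays (horizontal axis) for the 13648 probe sets tested, with the line of equal signal. The 283 probe sets called at least 4-fold lower in WS reach down to signals near the bottom of the axis, and the 38 called at least 4-fold higher lie closer to the line.

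The largest difference of any named gene lay in a tandem row of berberine bridge enzyme-like (BBE-like) genes on chromosome 1. These genes encode flavin-dependent oxidases, some of which oxidise oligosaccharides or indole compounds in plant defence. AT1G26390 read 0.61, 2.72 and 1.44 in WS roots, against 12.35, 12.36 and 13.22 in Col-0 roots, a difference of -11.06 (SE 0.44, adjusted p = 1.84e-11, limma). AT1G26380 read 5.02, 4.87 and 4.26 in WS, against 12.25, 12.35 and 12.83 in Col-0 (difference -7.76, SE 0.18, adjusted p = 4.45e-14, limma). AT1G26420 read -0.16, 4.22 and 4.35 in WS, against 9.54, 9.43 and 10.06 in Col-0 (difference -6.87, SE 0.79, adjusted p = 3.33e-06, limma). In all 3 genes every WS array lay far below every Col-0 array. These folds depend on how dim values are treated, and with 16 added to each signal the difference of AT1G26390 was -8.36 and that of AT1G26420 was -4.91. The neighbour AT1G26410 missed the filter, but its values had the same shape, at 1.4, 1.26 and 1.01 in WS against 10.91, 10.55 and 11.42 in Col-0. AT1G26400, the remaining gene of the row, was dim in both ecotypes, at most 4.1 in WS and 6.15 in Col-0. The tandem copies resemble each other in sequence, so cross-hybridization between their probe sets is possible and was not tested.

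The family lists here and below were written after the genes past 4-fold had been seen, so their counts are descriptions and are not independent support. The BBE-like family was lower in WS at 10 of its 12 tested members (83.3%, against 20.3% of all probe sets) and higher at 2 (16.7%, against 31.4%), with a median difference of -1.54 against 0.11 over all probe sets. A further 10 named members were too dim to test. A second row, on chromosome 5, held 4 tested members, all called lower (against 20.3% of all probe sets). Its strongest, AT5G44400, read 6.45, 6.65 and 7.64 in WS, against 10.47, 9.44 and 8.7 in Col-0 (difference -2.62, SE 0.38, adjusted p = 3.32e-05, limma). The bright member AT5G44380 read 11.76 to 11.94 in WS, against 12.57 to 13.14 in Col-0, a difference of only -0.99. The adjacent AT5G44410 differed by -0.53 with overlapping arrays and an adjusted p of 0.0494 from limma, so a single row held differences from -2.62 to -0.53. With no filter AT5G44410 was no longer called (adjusted p = 0.0693, limma), which leaves 3 members called lower in the row. AT5G44360 and AT5G44440, at its ends, were untested and dim. AT5G44440 read 5.84 to 7.14 in WS, against 5.02 to 5.3 in Col-0, the opposite direction. With no filter AT5G44440 was called higher in WS (difference 1.55, adjusted p = 0.0154, limma).

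Another BBE-like row, also on chromosome 1, held members that differed in opposite directions. AT1G30700 read 9.49, 9.89 and 9.52 in WS, against 11.68, 11.91 and 12.0 in Col-0 (difference -2.23, SE 0.13, adjusted p = 1.96e-09, limma). AT1G30760 read 9.89, 10.12 and 10.01 in WS, against 8.54, 9.27 and 9.04 in Col-0 (difference 1.06, SE 0.20, adjusted p = 0.000329, limma). Neither gene's arrays overlapped between the ecotypes. The other 2 named genes of the row, AT1G30710 and AT1G30740, were near the lower end of the scale in both, at most 2.44 in WS and 4.76 in Col-0.

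**Figure D3:**
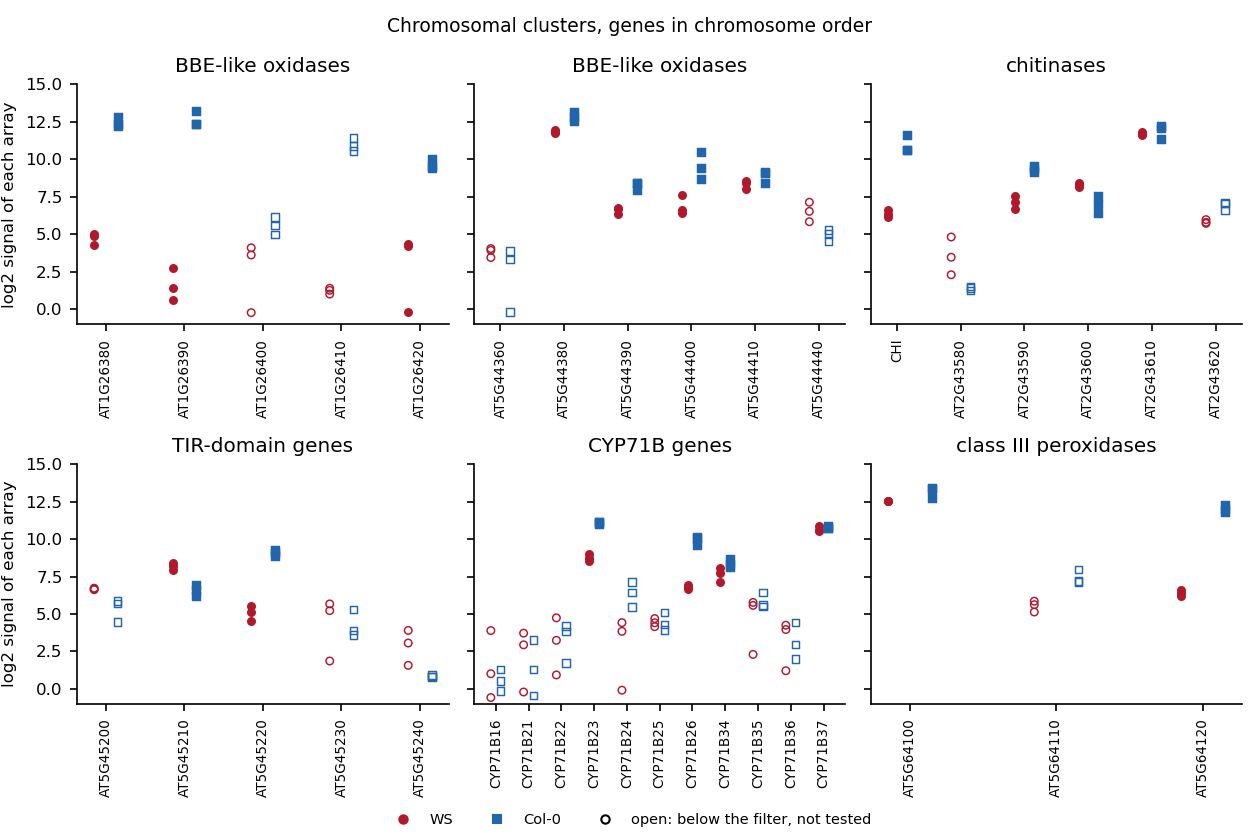
Log2 signal of each WS array (circles) and each Col-0 array (squares) for the members of 6 chromosomal clusters, with genes in chromosome order along the horizontal axes and open symbols for genes below the filter. The row led by AT1G26390 lies far lower in WS, while the chitinase and TIR-domain rows hold neighbours with opposite differences.

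Genes of peptide and calcium signalling, which act early in plant immune responses, were among those lower in WS. The PIP genes encode precursors of secreted peptides that amplify immune signalling. All 3 named on the array were tested and called lower (100%, against 20.3% of all probe sets). The list was added after these genes had been seen past 4-fold, so its count restates that choice. AT4G37290 read 4.67, 3.14 and 3.94 in WS, against 10.36, 10.39 and 11.06 in Col-0 (difference -6.69, SE 0.33, adjusted p = 2.63e-10, limma). AT2G23270 read 4.24 to 6.21 in WS, against 10.27 to 10.71 in Col-0 (difference -5.26). AT4G28460 read 4.7 to 5.45 in WS, against 9.85 to 10.66 in Col-0 (difference -5.06). In each of these the lowest Col-0 array lay more than 3 log2 units above the highest WS array. Of 35 calmodulin-like and related calcium-binding genes named, 21 were tested, 13 were lower in WS (61.9%, against 20.3% of all probe sets) and none higher (against 31.4%), with a median of -0.59. This list, too, was added after the genes past 4-fold had been seen. AT5G39670 read 6.55, 6.79 and 6.55 in WS, against 9.48, 10.63 and 9.89 in Col-0 (difference -3.37, SE 0.27, adjusted p = 5.63e-08, limma). AT3G01830 (-2.63), CML38 (-2.42) and AT3G25600 (-1.80) were also lower, and CML38 varied between arrays, at 7.0, 8.21 and 8.28 in WS against 9.61, 11.41 and 9.71 in Col-0.

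U-box genes of the PUB group encode ubiquitin ligases, several of which restrain immune signalling. Of 10 named, 8 were tested, 5 were lower in WS (62.5%, against 20.3% of all probe sets) and 1 was higher, with a median of -1.49. AT5G67340 (PUB2) differed by -2.03, PUB24 by -1.77, PUB23 by -1.61 and PUB19 by -1.52. PUB24 read 7.43, 7.5 and 7.66 in WS, against 9.25, 9.5 and 9.16 in Col-0 (SE 0.13, adjusted p = 3.05e-08, limma). PUB49 was the member higher in WS, by 0.38. The NHL genes, which encode membrane proteins related to the immune gene NDR1, were called lower at all 3 named members, 2 of which had been seen past 4-fold before the list was made, so this count supports nothing. The largest NHL difference was that of AT1G65690, at 7.25, 7.66 and 7.41 in WS against 11.14, 11.12 and 10.92 in Col-0 (difference -3.62, SE 0.12, adjusted p = 4.1e-12, limma).

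A list of genes known to be induced early by stress or immune elicitors held 35 loci, of which 9 were named on the array and 8 tested. All 8 were lower in WS (100%, against 20.3% of all probe sets), with a median of -1.65. The list shares CML38 and 3 PUB genes with the groups above, and it was written and trimmed after differences of these data had been seen, so this count supports nothing. The zinc finger gene STZ read 9.6, 10.18 and 10.35 in WS, against 12.04, 12.92 and 11.39 in Col-0 (difference -2.07, SE 0.44, adjusted p = 0.000963, limma). WRKY53, a transcription factor gene, read 8.06, 8.13 and 7.46 in WS, against 10.04, 9.88 and 8.78 in Col-0 (difference -1.68). BIK1, which encodes a kinase downstream of immune receptors, differed by -0.74 and WRKY22 by -0.99. For STZ and WRKY53 the Col-0 arrays spread more widely than the WS arrays, but no WS array reached a Col-0 array. CML37, the untested member, read 1.35, 4.55 and 3.51 in WS, against 8.37, 9.25 and 8.0 in Col-0.

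Genes for defence proteins that act on microbial walls or proteins followed. Chitinases cleave the chitin of fungal walls, and of 15 genes of this group named, 10 were tested, 8 were lower in WS (80%, against 20.3% of all probe sets) and 1 was higher (10%, against 31.4%), with a median of -1.25. CHI (AT2G43570) read 6.65, 6.36 and 6.18 in WS, against 10.62, 10.6 and 11.61 in Col-0 (difference -4.54, SE 0.20, adjusted p = 8.66e-11, limma). ChiC (AT4G19810) read 8.24, 8.19 and 8.35 in WS, against 12.2, 11.69 and 12.33 in Col-0 (difference -3.81, SE 0.18, adjusted p = 1.55e-10, limma). Within the row that CHI heads, on chromosome 2, members differed in both directions. AT2G43590 was lower in WS (-2.24), AT2G43600 was higher (8.41, 8.18 and 8.34 in WS against 6.43, 6.99 and 7.58 in Col-0, difference 1.31), and the bright AT2G43610 differed by -0.20 with an adjusted p of 0.422 from limma. The row's 2 dim members were untested, AT2G43580 at 2.3 to 4.82 in WS against 1.25 to 1.52 in Col-0, and AT2G43620 at 5.73 to 5.98 in WS against 6.58 to 7.12 in Col-0. In the row around ChiC, on chromosome 4, AT4G19720 was also lower (-1.40), and AT4G19730, AT4G19740 and AT4G19820 were too dim to test, at no more than 5.96 in WS and 5.87 in Col-0.

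The potato type I protease inhibitor AT2G38870, the one tested member of 3 named, read 8.69, 8.47 and 8.29 in WS, against 12.7, 12.74 and 13.35 in Col-0 (difference -4.45, SE 0.21, adjusted p = 1.42e-10, limma). Of 19 genes of the CAP group, to which the defence marker PR1 belongs, 10 were tested, 5 were lower (50%, against 20.3% of all probe sets) and 2 higher (20%, against 31.4%). AT4G07820 differed most, at 7.34, 6.45 and 6.59 in WS against 8.49, 11.33 and 11.23 in Col-0 (difference -3.56, SE 0.52, adjusted p = 3.94e-05, limma), with 1 Col-0 array well below the other two. AT4G25780 was the member most clearly higher in WS, by 1.54. The CAP count of 5 lower members became 8 with no filter and 2 with the stricter filter.

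Among lectins and germin-like proteins single members stood out rather than the families. JAL33 (AT3G16450), a jacalin-related lectin gene, read 9.43, 9.41 and 9.16 in WS, against 13.26, 13.38 and 13.39 in Col-0 (difference -4.01, SE 0.19, adjusted p = 1.2e-10, limma). Of the 10 jacalin-related genes tested out of 19, 3 were lower (30%, against 20.3% of all probe sets) and 4 higher (40%, against 31.4%). Their median was 0.05. Those higher were AT5G35940 (0.85), AT1G52060 (0.65), JAL22 (0.60) and AT1G52050 (0.58). The germin-like gene AT5G38910 read 2.67, 5.21 and 4.51 in WS, against 11.54, 10.7 and 12.11 in Col-0 (difference -7.32, SE 0.45, adjusted p = 3.33e-09, limma). Of 11 germin-like genes named, 3 were tested, and the other two differed by -1.88 (AT1G18980) and 0.38 (AT3G10080).

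Class III peroxidases are secreted haem enzymes that cross-link wall polymers and produce or consume hydrogen peroxide. Of 55 named, 39 were tested, 16 were lower in WS (41.0%, against 20.3% of all probe sets) and 6 higher (15.4%, against 31.4%). The median difference, -0.22, was small, and 4 members carried the large differences. AT5G64120 read 6.38, 6.57 and 6.23 in WS, against 11.78, 12.01 and 12.24 in Col-0 (difference -5.62, SE 0.17, adjusted p = 7.28e-13, limma). AT5G39580 (-4.40), AT5G06730 (-4.06) and AT1G14550 (-3.66) were each at most 6.24 on any WS array and at least 8.87 on any Col-0 array. In the row of AT5G64120 on chromosome 5, the neighbour AT5G64100 read 12.51 to 12.55 in WS against 12.73 to 13.42 in Col-0 (difference -0.63). The gene between them, AT5G64110, was too dim to test, at 5.13 to 5.85 in WS against 7.14 to 7.97 in Col-0. AT4G11290 (0.85) and AT2G34060 (0.74) led the members higher in WS.

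**Figure D4:**
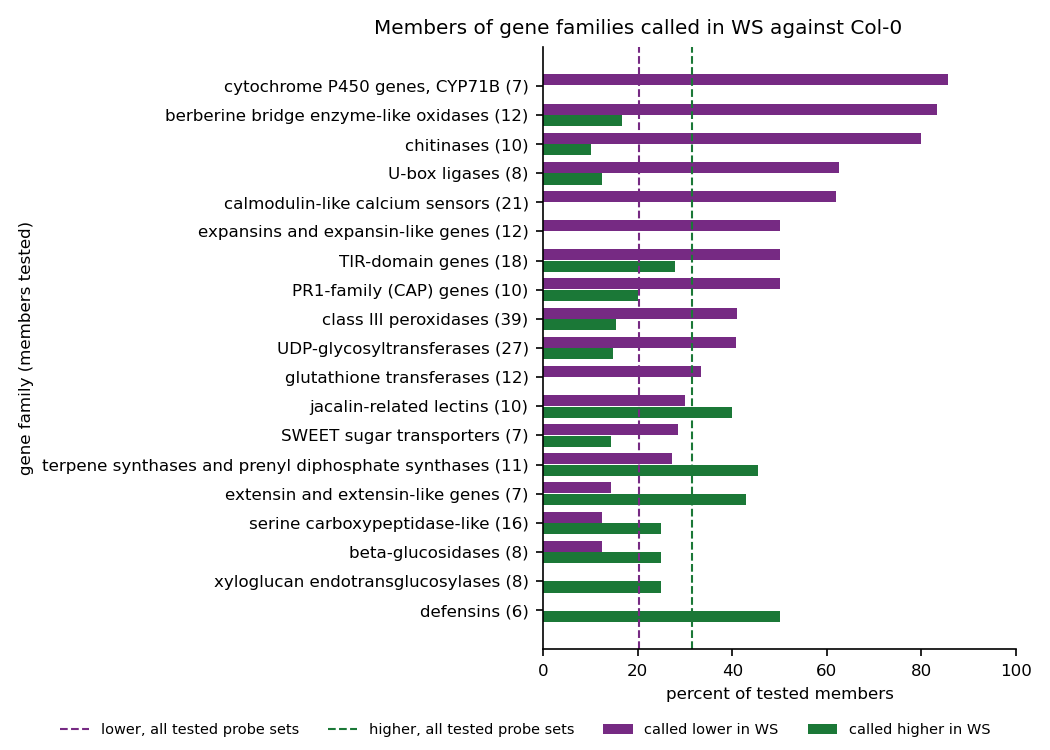
Percent of tested members (horizontal axis) called lower or higher in WS for each gene family with 6 or more tested members, beside the same percent over all probe sets tested (dashed lines, 20.3% lower and 31.4% higher). The bars for CYP71B, BBE-like and chitinase genes reach 80% or more on the lower side, and those of serine carboxypeptidase-like genes and beta-glucosidases stay under both lines.

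Genes of specialised metabolism differed in both directions. CYP71B genes encode a group of cytochromes P450, which oxygenate small molecules, and of 19 named, 7 were tested, 6 were lower in WS (85.7%, against 20.3% of all probe sets) and none was higher, with a median of -0.79. CYP71B26 read 6.92, 6.69 and 6.77 in WS, against 10.17, 10.1 and 9.63 in Col-0 (difference -3.17, SE 0.19, adjusted p = 2.82e-09, limma). CYP71B23, in the same row on chromosome 3, read 8.55 to 9.01 in WS against 10.99 to 11.17 in Col-0 (difference -2.32). CYP71B34 in that row was lower by a smaller amount (-0.75), and the bright CYP71B37 read 10.54 to 10.87 in WS against 10.74 to 10.87 in Col-0, a difference of -0.12 with an adjusted p of 0.431 from limma. The row's remaining 7 genes were too dim to test, among them CYP71B24 at -0.09, 3.84 and 4.42 in WS against 5.48, 6.42 and 7.14 in Col-0. The other 6 (CYP71B16, CYP71B21, CYP71B22, CYP71B25, CYP71B35 and CYP71B36) lay at 5.77 or less in WS and 6.42 or less in Col-0. Outside the row, CYP71B6 was lower by -2.33.

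UDP-glycosyltransferases attach sugars to small molecules, and of 52 named, 27 were tested, 11 were lower (40.7%, against 20.3% of all probe sets) and 4 higher (14.8%, against 31.4%), with a median of -0.33. AT3G46700 led them, at 6.74, 6.47 and 6.95 in WS against 9.54, 9.61 and 9.22 in Col-0 (difference -2.73, SE 0.21, adjusted p = 3.31e-08, limma). Its neighbour AT3G46720 differed by -1.39. The other 5 named genes of this row were untested. AT3G46650 read 2.57 to 5.46 in WS against 6.83 to 7.16 in Col-0, and UGT76E11 ran the other way, at 3.84 to 4.83 in WS against 2.51 to 3.27 in Col-0. AT3G46690 read 5.62 to 6.31 in WS against 6.75 to 7.34 in Col-0, AT3G46680 read 2.79 to 4.92 in WS against 5.41 to 6.11 in Col-0, and UGT76E12 was at most 2.37 in WS and 4.74 in Col-0. UGT72E1 (-1.81) and UGT72E2 (-1.23), which glucosylate lignin precursors, were lower, and UGT80B1 (0.78) and UGT78D2 (0.67) were higher. Of 14 glutathione transferase genes, 12 were tested, 4 were lower (33.3%, against 20.3% of all probe sets), led by GSTU22 (-1.06), and none was higher.

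Terpene synthases make volatile and other isoprenoids from prenyl diphosphates, and a terpene synthase gene and a prenyl diphosphate synthase gene were higher in WS by more than 4-fold. AT3G29410, annotated as a terpene synthase, read 12.61, 12.87 and 12.85 in WS, against 9.92, 8.99 and 8.92 in Col-0 (difference 3.50, SE 0.28, adjusted p = 5.75e-08, limma). AT3G29430, a prenyl diphosphate synthase gene beside it on chromosome 3, read 7.94, 7.99 and 7.75 in WS, against 5.46, 5.3 and 5.38 in Col-0 (difference 2.51, SE 0.19, adjusted p = 4.59e-08, limma). AT3G29375, in the same stretch, was higher by 1.75, and no other gene within the stretch was tested. The stretch was drawn from genes called higher by 2-fold or more, so the shared direction of these 3 follows from that choice. Of the 23 family members named, 11 were tested, 5 were higher (45.5%, against 31.4% of all probe sets) and 3 lower (27.3%, against 20.3%), with a median of 0.57. AT1G31950 (1.60) and AT1G33750 (1.25) were higher, and AT3G29110 (-2.01) and the cineole synthase gene TPS-CIN (-1.89) were lower. TPS-CIN read 9.52, 9.37 and 9.55 in WS, against 10.93, 11.57 and 11.61 in Col-0. Of 5 genes of the known triterpene clusters, 4 were tested. AT1G78480 (-0.91) and AT5G47980 (-0.74) were lower (50%, against 20.3% of all probe sets), and AT5G47950 (0.71) was higher (25%, against 31.4%).

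Wall and growth genes gave smaller and mixed differences with a few exceptions. Expansins loosen walls during cell growth, and of 18 expansin and expansin-like genes, 12 were tested, 6 were lower (50%, against 20.3% of all probe sets) and none higher, with a median of -0.40. EXLA3 read 1.41, 4.92 and 5.46 in WS, against 9.23, 9.96 and 7.93 in Col-0 (difference -5.11, SE 0.84, adjusted p = 0.000105, limma), and 1 WS array lay far below the other two. EXLA1 (-1.48), beside EXLA3 on chromosome 3, and EXLB1 (-1.97) were also lower, and the root hair expansin genes EXPA18 and EXPA7 were lower by -1.01 and -0.77. Extensins are hydroxyproline-rich structural wall proteins, and of 12 named, 7 were tested, 3 were higher (42.9%, against 31.4% of all probe sets) and 1 lower (14.3%, against 20.3%). The 2 large differences of this family ran in opposite directions. AT3G28550 read 11.18, 11.08 and 10.99 in WS, against 9.19, 8.51 and 8.49 in Col-0 (difference 2.36), whereas AT1G26240 read 5.08, 5.42 and 5.47 in WS, against 8.79, 9.0 and 10.38 in Col-0 (difference -4.07). Of 8 xyloglucan endotransglucosylase genes tested, XTH21 (1.13) and XTH16 (0.66) were higher (25%, against 31.4% of all probe sets) and none was lower.

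Other families had shares of calls near or under those of all probe sets, or few tested members. Of 16 serine carboxypeptidase-like genes tested out of 29, 4 were higher (25%, against 31.4% of all probe sets) and 2 lower (12.5%, against 20.3%). Of 8 beta-glucosidase genes tested out of 21, 2 were higher (25%, against 31.4%) and 1 lower (12.5%, against 20.3%). The largest difference was that of BGLU44 (1.35). Of 7 SWEET sugar transporter genes tested out of 14, 1 was higher (14.3%, against 31.4%) and 2 were lower (28.6%, against 20.3%). SWEET2, which limits sugar loss from roots, read 6.73, 7.13 and 6.61 in WS, against 9.43, 9.49 and 10.17 in Col-0 (difference -2.87, SE 0.20, adjusted p = 1.03e-08, limma). SWEET11, a sucrose exporter, read 12.24, 12.09 and 12.23 in WS, against 10.03, 10.91 and 11.58 in Col-0 (difference 1.35). Of 6 defensin genes tested out of 15, 3 were higher (50%, against 31.4%) and none was lower (against 20.3%). Those higher were PDF2.5 (1.02), PDF2.1 (1.02) and LCR68 (0.52).

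TIR-domain genes, many of which encode intracellular immune receptors, were mostly too dim to test, with 18 of 85 above the filter. Of these, 9 were lower in WS (50%, against 20.3% of all probe sets) and 5 higher (27.8%, against 31.4%), with a median of -0.31. AT5G45220 and its neighbour AT5G45210 on chromosome 5 differed in opposite directions. AT5G45220 read 5.11, 5.5 and 4.51 in WS, against 8.88, 9.24 and 9.07 in Col-0 (difference -4.02, SE 0.31, adjusted p = 4.59e-08, limma). AT5G45210 read 8.4, 7.92 and 8.19 in WS, against 6.92, 6.61 and 6.23 in Col-0 (difference 1.58, SE 0.20, adjusted p = 7.65e-06, limma). The flanking AT5G45200 and AT5G45240, both untested, were dim, AT5G45200 at 6.62 to 6.72 in WS against 4.46 to 5.86 in Col-0 and AT5G45240 at 1.57 to 3.9 in WS against 0.79 to 0.91 in Col-0. AT5G45230 overlapped between the ecotypes, at 1.86 to 5.67 in WS against 3.58 to 5.31 in Col-0. AT5G44910 (-1.81) and AT5G45000 (-1.72) lay elsewhere on the same chromosome and were lower, and AT5G58120 was higher by 1.11.

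On chromosome 1, a row of 9 TIR-domain genes had 3 tested members, all lower in WS (against 20.3% of all probe sets). AT1G72940 read 5.91, 6.19 and 6.04 in WS, against 8.51, 9.08 and 8.08 in Col-0 (difference -2.51, SE 0.35, adjusted p = 1.94e-05, limma). AT1G72900 differed by -1.57 and AT1G72890 by -0.71. The 6 untested members did not share 1 direction. AT1G72920 read 1.12 to 5.09 in WS against 5.54 to 7.17 in Col-0, AT1G72840 read 7.32 to 7.55 in WS against 6.11 to 6.6 in Col-0, and AT1G72850 read 6.76 to 7.54 in WS against 6.37 to 6.88 in Col-0. AT1G72860, AT1G72870 and AT1G72950 had overlapping arrays and read 4.97 to 6.78 in WS against 4.82 to 7.02 in Col-0. The number of TIR-domain genes called lower was 26 with no filter and 1 with a filter at the 60th percentile, so the count follows the filter.

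Of the 15 genes with the largest lower values in WS, several belong to none of these families. AT3G55790 and AT2G04800 encode proteins of unknown function. AT3G55790 read 2.99, 3.91 and 1.78 in WS, against 11.35, 10.76 and 11.81 in Col-0 (difference -8.41, SE 0.59, adjusted p = 1.46e-08, limma). AT2G04800 was more even between arrays, at 4.79, 4.62 and 5.21 in WS against 11.04, 11.25 and 11.28 in Col-0 (difference -6.32, SE 0.15, adjusted p = 5.21e-14, limma). AT5G54040, a DC1-domain gene, differed by -7.65, AT1G23960 by -7.49 and AT3G18250 by -6.65. AT3G60270, a cupredoxin gene, differed by -6.59, AT1G73490, an RNA recognition motif gene, by -6.57, AT3G43740, a leucine-rich repeat gene, by -5.95, and AT5G05750, a DnaJ-domain gene, by -5.48. In all 15 genes the WS mean lay under the filter value, so the size of the fold rests on dim WS signal. With 16 added to every signal the 15 differences ran from -8.36 to -4.41. None changed direction or lost its call, which follows largely from their choice as the largest called differences.

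**Figure D5:**
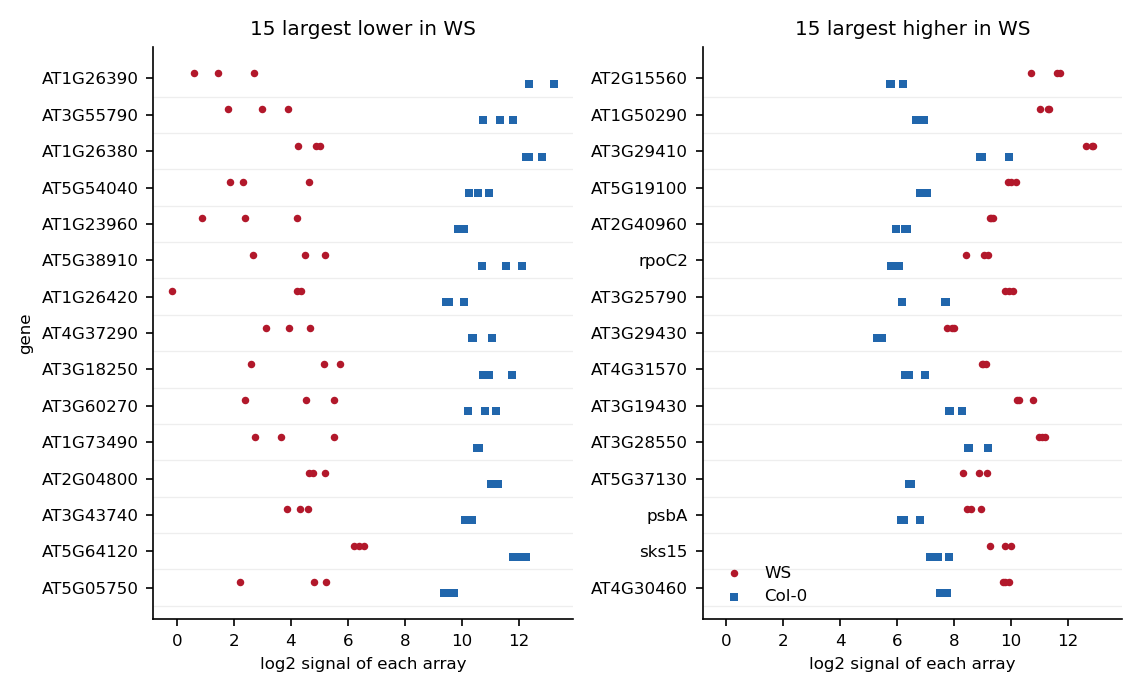
Log2 signal (horizontal axes) of each WS array (circles) and each Col-0 array (squares) for the 15 genes with the largest lower and the 15 with the largest higher values in WS. The WS circles of the lower genes scatter over several log2 units at the dim end, while the Col-0 squares of the same genes run from 9.36 to 13.22.

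The 2 genes higher in WS by more than 16-fold were AT2G15560 and AT1G50290. AT2G15560 read 10.7, 11.7 and 11.6 in WS, against 5.75, 5.79 and 6.22 in Col-0 (difference 5.41, SE 0.27, adjusted p = 2.15e-10, limma). AT1G50290 read 11.31, 11.3 and 11.01 in WS, against 6.95, 6.76 and 6.66 in Col-0 (difference 4.42, SE 0.17, adjusted p = 1.54e-11, limma). Both were bright on all 3 WS arrays. Their Col-0 means, 5.92 for AT2G15560 and 6.79 for AT1G50290, lay under the filter value of 6.845, so the size of these folds rests on dim Col-0 signal. AT5G19100, an aspartyl protease-like gene, was higher by 3.14, AT2G40960 by 3.10 and AT4G31570 by 2.48. The Myb-family gene AT3G25790 read 9.91, 9.78 and 10.07 in WS, against 6.17, 7.72 and 7.67 in Col-0 (difference 2.73). The glycine-rich protein gene AT4G30460 (2.21), sks15 (2.22), AT3G19430 (2.42) and AT5G37130 (2.32) complete the nuclear genes of the 15 with the largest higher values, beside AT3G29410, AT3G29430 and AT3G28550 above.

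The remaining members of the 15 higher genes, rpoC2 and psbA, are encoded in the plastid. rpoC2, a subunit of the plastid RNA polymerase, read 9.05, 8.42 and 9.18 in WS, against 5.8, 5.9 and 6.05 in Col-0 (difference 2.96, SE 0.23, adjusted p = 3.7e-08, limma). psbA, which encodes a reaction centre protein of photosystem II, read 8.93, 8.58 and 8.46 in WS, against 6.23, 6.81 and 6.14 in Col-0 (difference 2.26). Of 69 plastid genes named, 42 were tested, 25 were higher (59.5%, against 31.4% of all probe sets) and 5 lower (11.9%, against 20.3%), with a median of 0.72. The genes ndhA and ndhI, which encode subunits of the plastid NDH complex, went the other way. ndhA read 6.27, 6.65 and 7.16 in WS, against 9.29, 9.58 and 9.59 in Col-0 (difference -2.79), and ndhI read 9.32, 9.27 and 9.95 in WS, against 11.44, 11.75 and 11.88 in Col-0 (difference -2.18). Plastid transcripts carry little poly(A), and the 3′ minus 5′ control signal differed between the same arrays, as given above. Its part in these differences was not tested.

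By nuclear chromosome, the share of tested genes called lower by at least 4-fold ran from 1.66% to 2.46%. It was 2.29% of 1879 genes on chromosome 1, 2.46% of 1058 on chromosome 2, 1.77% of 1470 on chromosome 3, 1.66% of 1087 on chromosome 4 and 1.83% of 1748 on chromosome 5. In the plastid genome it was 4.76%, from the 2 genes ndhA and ndhI of 42 tested. Probe sets whose name carries the _s_at suffix, given to those that match several transcripts, were lower by at least 4-fold at 19 of 474 (4.01%), against 264 of 13160 (2.01%) of those with the plain _at suffix. Neighbouring genes that moved alike by 2-fold or more were found in 20 runs of at least 3 genes. Of these runs, 11 were lower in WS and 9 higher. Each such gene lay within 10 annotated genes of the next, and tested genes that had not moved alike could lie between. From AT5G12350 to AT5G12940, 4 of 14 tested genes moved alike, and from AT3G19360 to AT3G19510, 3 of 9. Whether the runs are more than the share of all genes called would give was not tested. Runs were sought after the data had been seen. On chromosome 3, EXLA3, EXLA1 and the histone H2B gene HTB11 formed a run with differences from -5.11 to -1.48 and no other tested gene between them. On chromosome 1, AT1G23830, AT1G23890 and AT1G23960 ran from -7.49 to -1.57, and on chromosome 5, AT5G59490, AT5G59530 and AT5G59540 ran from -3.92 to -1.20, each with 1 other tested gene in between. Runs of opposite direction interleaved at AT5G16200 to AT5G16300, where 3 genes were lower and 3 higher.

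Genes with more than 1 tested probe set allowed the same transcript to be read at different places. There were 41 such genes, each with 2 probe sets, and 12 had a probe set called lower in WS by at least 2-fold. In 5 of the 12 both probe sets were called lower, in 5 the other was not called and in 2 it was called higher. The copper amine oxidase gene AT1G31710 was the most divided. Its brighter probe set read 11.87, 11.87 and 12.06 in WS, against 10.95, 11.33 and 11.43 in Col-0 (difference 0.69), and its dimmer one read 5.57, 6.35 and 6.1 in WS, against 8.75, 8.77 and 9.0 in Col-0 (difference -2.83). AT3G53670 was likewise split, at 0.56 and -2.25, and AT5G13030 at 0.20 (not called) and -2.26. Calls in opposite directions were found in 3 genes, the other being AT1G31050 (0.42 and -0.75). AT5G44820 alone was lower by 2-fold or more on both, at -1.03 and -1.88. On the higher side, 4 genes had a probe set called by 2-fold or more, and in 2 of these both were called higher. AT5G50740 differed by 2.20 and 1.94, and AT1G79150 by 0.98 and 1.00. In 32 of the 41 genes the dimmer probe set had the lower difference. Brightness was the mean over all arrays, WS among them. A low WS signal itself makes a probe set dimmer, so this count is a description only. No family member and none of the 30 genes with the largest differences had 2 tested probe sets, so this check could not be made for them.

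The tissue label was checked against marker genes. Of 21 root markers, 4 were named on the array, and PYK10, a beta-glucosidase gene of root ER bodies, read 13.96 to 14.37 in WS and 14.0 to 14.05 in Col-0. Their summed signal was 14.2 to 14.6 in WS and 14.4 to 14.51 in Col-0, and none was at 0. The sum is mostly the signal of PYK10 and says little about the others. Of the 3 root markers tested, 2 were called lower in WS (66.7%, against 20.3% of all probe sets). Their median was -0.77, against 0.11 over all probe sets tested. NAI2, needed for the ER bodies that hold PYK10, was lower in WS by -0.94, and EXPA7 by -0.77. Of 9 markers of green tissue, 4 were named, with a summed signal of 11.61 to 11.82 in WS and 10.88 to 11.64 in Col-0. PSBY was called higher in WS (0.86), and LHCB4.1, RCA and PSBW were not called. The part of green tissue in the higher plastid signal was not tested.

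The P35S lines, labelled WS and Col-0, offered a comparison that shares no array with the wild types and lies within 1 array set. P35S:rGRF3 against P35S:rGRF1 gave 2891 called probe sets (21.2%), 1178 higher (8.63%) and 1713 lower (12.6%) in P35S:rGRF3. At the 321 probe sets with a 4-fold difference between the wild types, the difference of P35S:rGRF3 from P35S:rGRF1 had the same sign at 163. Its median there was -0.09, against -2.57 for WS minus Col-0. In both P35S lines AT1G26390 stood at the Col-0 level, at 11.93 in P35S:rGRF3 and 12.94 in P35S:rGRF1 on average, against 4.0 in the mutant. AT2G15560 averaged 5.81 in P35S:rGRF3 and 5.99 in P35S:rGRF1, against 11.19 in the mutant. A test of the difference between both contrasts, added after the data were seen, called 313 of the 321 probe sets (97.5%), and 48.8% of all tested. Since the 321 were chosen for the difference that this test contains, their share is a description only. This comparison also holds any effect of the transgenes.

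Over all 15 arrays, the lowest or highest values divided as the array sets did. At 217 of the 283 probe sets lower by 4-fold (76.7%), and at 57 of the 60 lower by 16-fold (95%), all 6 WS and mutant arrays lay below all 9 other arrays. At 26 of the 38 probe sets higher by 4-fold (68.4%), they lay above all 9. Over all probe sets tested, the same 6 arrays lay below the 9 at 8.15% and above them at 14.7%. The probe sets past 4-fold were chosen for a difference between WS and Col-0 arrays, which are part of this division, so their higher share is a description only. By that choice WS and Col-0 arrays were already without overlap at all 283 and all 38 of them, against 58.3% of all tested. Of 167 named genes past 4-fold, the mutant lay nearer WS at 145 and nearer Col-0 at 22, and genes nearer Col-0 were found on all 5 chromosomes, 7 on chromosome 1, 4 on chromosome 2, 3 on chromosome 3, 5 on chromosome 4 and 2 on chromosome 5, beside 1 in the plastid. Among those nearer Col-0 were STZ, CML38, AT3G01830 and AT2G27080 of the signalling groups above. The nitrate transporter gene NRT2.5, lower in WS by -3.34, was also among them, as was AT3G25790, higher in WS.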

How the data were processed

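The deposited values are signal intensity on a linear scale. The authors made them with MAS5, per the submitters' processing notes, which name no version. Log2 was taken with no offset or further normalization (array medians spanned 0.149). Probe sets were tested where the mean over 15 arrays reached the 40th percentile (6.845, a signal of 115). Group means were fitted with limma 3.58.1 in R 4.3.3 (eBayes with trend), two-sided, with Benjamini-Hochberg adjustment over all 13648 tested, and called at 0.05. Of these, 7346 had 1 gene, 287 several and 6015 none in the annotation. Names and gene order come from a table of assembly TAIR10.1. A gene is given by its brightest probe set. The number of arrays limits the precision. The fit was tested on simulated data.

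Members and lists were chosen with earlier results of these data known. The gene table holds no descriptions, so families follow symbols or locus lists written after the genes past 4-fold had been seen. The PIP, NHL, calcium-binding and early response lists were added then, and 9 loci taken from those genes were removed from the last. Named are the 15 largest differences each way without overlap of arrays, up to 4 called members a family, and members of clusters (at least 3 family genes, each within 10 genes of the next) that hold a 4-fold call. Other genes were named after their values were seen. The alternatives changed the filter (none, 60th percentile), the offset (16), the normalization (quantile, median), the variance model, the arrays in the fit, the replicate block and the minimum change (1.5-fold).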

Additional observations from a re-analysis of the deposited data

Results flagged for a closer look

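The difference between arrays labelled WS and arrays labelled Col-0 was unequal in the wild types and in the P35S lines. A test of (WS minus Col-0) minus (P35S:rGRF3 minus P35S:rGRF1) called 6657 of 13648 probe sets (48.8%, limma, adjusted p under 0.05). This contrast contains WS minus Col-0, which alone called 51.7% of probe sets. At the 321 probe sets past 4-fold the P35S:rGRF3 arrays lay mostly nearer Col-0, against their WS label. The filter that admitted these probe sets used the P35S arrays too, and its part in this position was not tested. The P35S lines lie in 1 array set, the wild types in both, and the transgenes differ between the lines. Array set, ecotype label and transgene therefore cannot be told apart here.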

How the results depend on the processing

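The 30 genes with the largest differences kept their direction and their call in all 492 values under the alternatives that tested them. They were chosen as the largest called differences without overlap of arrays, so this result follows largely from that choice. The count past 4-fold was 321, against 919 with no filter (220 higher, 699 lower) and 167 with the 60th percentile (13 higher, 154 lower), and the count called at any size was 7058, against 1508 with a minimum of 1.5-fold. Leaving out 1 WS or Col-0 array gave 6218 to 6547 called probe sets and 314 to 345 past 4-fold. For P35S:rGRF3 against P35S:rGRF1 the range was 1672 to 2897, and the lowest count came without P35S:rGRF1 replicate 1. With the 6 arrays alone, which leaves out both P35S lines, 6536 were called and 321 passed 4-fold. Same-numbered samples did not pair (correlations of their deviations from -0.065 to 0.033 between WS and Col-0, and 0.019 to 0.177 between the P35S lines). With the replicate block the counts were 6928, 321 past 4-fold and 2766 for the P35S lines. The block, too, leaves the differences between group means unchanged. Of 459 counts of family members called lower, 411 stayed within 1.5 times of the main count and 48 did not, mostly under the other filters and the minimum change. The filters change which members are tested, and the cause of the other shifts was not tested. No detection calls were used, so a dim signal is not known to be above background.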
